A study of Homo sapiens with 9 samples.

Results

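The switch from an epithelial to a mesenchymal programme was followed at 9 genes: the classical cadherins CDH1 and CDH2, the mesenchymal genes VIM and FN1, and the transcription factors SNAI1, SNAI2, TWIST1, ZEB1 and ZEB2. They are 9 of 20098 protein-coding genes, of which 19211 had at least 1 peak and were tested. A peak of open chromatin was assigned to a gene when the midpoint of its interval fell inside the gene or up to 20 kb outside it (build GRCh37). Among the 50000 highest-ranking peaks of each library, these genes held 56 of 106131 merged regions, and in the full lists they held 359 of 738271.

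Open chromatin was profiled by ATAC-seq, which uses Tn5 transposase to tag accessible DNA, in K562 cells, a human erythroid line from a chronic myeloid leukaemia. The 9 libraries form 3 genotypes of 3 libraries each: the parental cells with no STAG2 mutation (wild type), a line with STAG2 R614* on part of its alleles (+/-, heterozygous) and a line with R614* throughout (-/-, homozygous). The STAG2 protein belongs to cohesin, which shapes chromatin loops and holds sister chromatids together. Both mutant lines were edited with CRISPR-Cas9, each genotype is 1 line, and all were grown in IMDM with serum. The homozygous cells were adherent and were detached with trypsin, so genotype, clone and adherence cannot be told apart. Because whole cultures were assayed, fewer cells with an open site and less accessibility per cell cannot be told apart either. No label says that replicates came from separate cultures, so p-values measure only the spread between these libraries, which may be technical.

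In an epithelial sheet, E-cadherin joins neighbouring cells through catenins. During the mesenchymal switch, repressors of the SNAI, TWIST and ZEB families lower E-cadherin, many of them by binding E-box sequences in DNA, while N-cadherin, the filament protein vimentin and the matrix protein fibronectin rise. K562 cells normally grow in suspension, and blood cells commonly carry vimentin and ZEB2 without having passed through an epithelial state.

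The lists were not all independent. Of the shorter list of each pair, 46.0% of intervals in wild type 3 and heterozygous 1 had the same start and end, as did 23.2% in wild type 1 and wild type 2 and 1.17% in heterozygous 2 and heterozygous 3. The other 33 pairs shared between 0.223% and 0.351%. Results for wild type against heterozygous therefore rest partly on shared intervals. Homozygous against wild type, and the tests over the 3 genotypes, also count wild type 1 and 2 as separate libraries. The region calls, peak counts and percentile tests on the 50000 were repeated with each source used once. Whether these intervals came from pooled or exchanged reads was not tested, nor was whether the genotype labels of wild type 3 and heterozygous 1 hold. The lists held 181579 to 319986 peaks, and the −log10 p-value at rank 50000 ran from 4.95 to 6.73. The lists carry no read counts, so depth is unknown. Of 10 K562 marker genes, 6 had a promoter peak in all 9 libraries, as did 45.4% of all protein-coding genes. The same held for 0 of 4 B cell, 0 of 4 T cell, 0 of 3 hepatocyte, 1 of 6 fibroblast and 1 of 4 epithelial markers. A promoter peak was in 0 libraries for 2 K562, 4 B cell, 2 T cell, 2 hepatocyte, 3 fibroblast and 3 epithelial markers. Of all protein-coding genes, 31.0% were in that state.

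A pair of ZEB1 stretches are shown first, each 5′ to 3′, because library differences at both recur below. The first is the 250 bases before the main start site of ZEB1 (RefSeq, GRCh38.p14 table, found by exact match at chr10:31607895-31608144 in GRCh37, plus strand), a promoter that dropped out of the strongest peaks in several libraries. Capitals mark E-box letters (CAGGTG, both strands) and RUNX letters (TGTGGT, both strands), 2 of which overlap at its 5′ end.
ZEB1 promoter: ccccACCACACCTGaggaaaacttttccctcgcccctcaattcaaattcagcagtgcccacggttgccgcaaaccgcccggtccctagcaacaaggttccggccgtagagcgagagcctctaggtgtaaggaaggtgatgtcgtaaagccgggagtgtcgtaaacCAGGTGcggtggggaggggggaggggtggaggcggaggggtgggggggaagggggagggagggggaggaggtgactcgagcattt
The second lies in an intron of ZEB1, 85.6 kb after the start (chr10:31693622-31693921, plus strand), where peaks were listed in homozygous libraries alone. Capitals mark its RUNX letters.
ZEB1 +85.6 kb: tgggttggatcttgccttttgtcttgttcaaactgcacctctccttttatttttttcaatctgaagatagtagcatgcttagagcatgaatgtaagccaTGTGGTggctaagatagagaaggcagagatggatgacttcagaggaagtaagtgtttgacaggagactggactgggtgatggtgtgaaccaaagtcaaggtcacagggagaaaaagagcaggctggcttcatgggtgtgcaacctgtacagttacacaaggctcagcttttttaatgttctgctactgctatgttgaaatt

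Neither CDH1, which encodes E-cadherin, nor CDH2, which encodes N-cadherin, had a promoter peak among the 50000 strongest of any library, a state shared by 31.0% of 19756 protein-coding genes. A promoter here means that the interval reached within 500 bp of a protein-coding start of the gene. Starts of non-coding genes were not counted, and some distal sites below lie within 500 bp of one. CDH1 had no promoter peak in any full list either, which held for 13.97% of genes. CDH2 had a weak one in 5 full lists, the strongest at rank 108525 in homozygous 2.

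CDH1 did carry open sites upstream, and their ranks differed between libraries. The site 5.1 kb before its start (chr16:68765446-68766783) was at percentiles 42.5, 40.5 and 26.9 in wild type 1 to 3. A percentile is the share of a library's 50000 peaks that ranked lower by −log10 p. In heterozygous 1 to 3 the same site was at 8.598, 18.8 and 13.04, and in homozygous 1 and 3 it was at 18.8 and 0.654, with no such peak in homozygous 2. All 3 wild type libraries were above all others, but the exact permutation test over the 3 genotypes gave p = 0.0107 and an adjusted p of 0.373 over all regions. Every full list held this site.

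The CDH1 site 12.3 kb before the start (chr16:68758629-68759183) was at 73.2 and 80.1 in wild type 1 and 2 and at 68.2 and 28.0 in heterozygous 2 and 3, and was missing from the 50000 of the other 5 libraries. The full lists held it in all 9, at ranks 103201, 167154 and 129936 in homozygous 1 to 3 and at ranks 9945 to 91539 in the other 6. A list of 100000 peaks thus showed it in 6 of 6 other libraries and 0 of 3 homozygous ones, and a list of 50000 did not. In an intron of CDH1, the site at 23.8 kb went the other way and was weak: homozygous 1 to 3 had it at ranks 67384, 37457 and 65404, heterozygous 2 and 3 at 106747 and 47877, and no wild type list held it. At the far end of the CDH1 window, the promoter of the neighbouring gene TANGO6 was open in all 9 libraries, between percentiles 33.8 and 66.0.

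CDH1 had 3, 4 and 2 peaks among the 50000 in wild type, 2, 5 and 4 in heterozygous and 4, 2 and 2 in homozygous libraries, and the groups overlapped (exact permutation p = 0.743). Its full-list counts were 4, 7 and 9, then 7, 9 and 6, then 10, 11 and 14 peaks. All homozygous counts were above all others there (exact permutation p = 0.05, adjusted p = 0.327). The share of all genes separated in this way in the full lists is not given here. The sign of the difference between homozygous and wild type thus turned with the length of the list.

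CDH2 had 2, 2 and 1 peaks in wild type, 1, 2 and 0 in heterozygous and 3, 2 and 2 in homozygous libraries (exact permutation p = 0.25). Its site 12.4 kb upstream (chr18:25769094-25769830) was open in 8 libraries, at percentiles 53.6, 6.34 and 76.8 in wild type, 79.6 and 56.3 in heterozygous 1 and 2, and 51.4, 57.4 and 75.5 in homozygous libraries. Heterozygous 3 held it only at rank 70442. An intronic site 82.3 kb after the start (chr18:25674405-25675190) was in all 3 homozygous libraries at 18.4, 68.5 and 36.3, in wild type 1 and 2 at 38.7 and 17.5, and in heterozygous 2 at 8.13. That window is repeated sequence: the median of its 30-base words occurs 2319 times in the genome. How reads that match many copies were placed is not given in the sources used here. Counted over the full lists, CDH2 had 22, 43 and 34 peaks in wild type, 26, 15 and 8 in heterozygous and 19, 24 and 39 in homozygous libraries (exact permutation p = 0.221), so the groups overlapped. The lowest counts were in heterozygous 2 and 3 (lists of 196473 and 200224 peaks) and the highest in wild type 2 and homozygous 3 (304073 and 319986), and the part of list length was not tested.

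**Figure D1:**
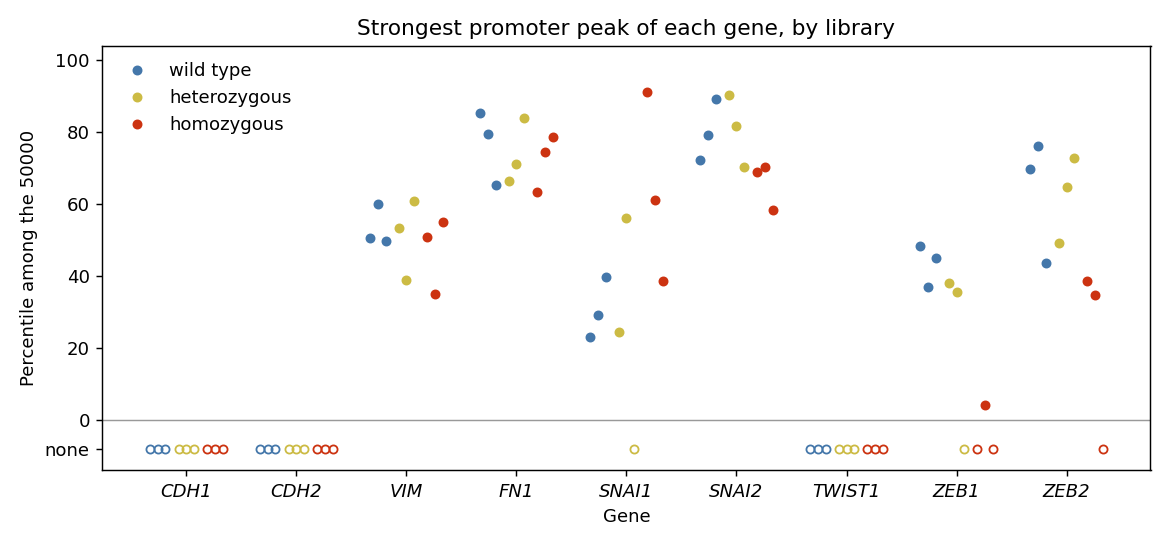
Percentile (vertical axis, 0 weakest to 100 strongest) of the strongest promoter peak of each gene among the 50000 of each library, with 1 point per library coloured by genotype. Open circles at "none" are libraries without such a peak. CDH1, CDH2 and TWIST1 have none in any library, VIM, FN1 and SNAI2 have one in all 9, and homozygous points for ZEB1 and ZEB2 lie below the wild type points.

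VIM, which encodes the intermediate filament vimentin, was open at its promoter in every library. The peak (chr10:17269930-17271630, centred in an intron) was at percentiles 50.7, 60.2 and 49.9 in wild type, 53.2, 38.8 and 60.7 in heterozygous and 50.9, 35.0 and 55.2 in homozygous libraries. The 3 genotypes overlapped (exact permutation p = 0.739). VIM, FN1 and SNAI2 were the 3 of 9 genes with a promoter peak in all 9 libraries, a state shared by 45.4% of protein-coding genes. An upstream site 11.7 kb before the VIM start was also in all 9, from 34.7 in homozygous 1 to 93.1 in heterozygous 2.

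A site inside VIM differed more. The region 2.1 kb after the start (chr10:17271841-17272830, centred on an exon) was at 65.9, 86.8 and 72.8 in heterozygous 1 to 3 and at 64.4 in wild type 3. It was at 2.36 in homozygous 3 and missing from the 50000 of wild type 1, wild type 2, homozygous 1 and homozygous 2. Wild type 3 and heterozygous 1 are the pair that shares intervals, so these are not 4 independent libraries. The exact permutation test gave p = 0.0357 and an adjusted p of 0.373. Full-list ranks show how near the limit the others were: 60307 and 52102 in wild type 1 and 2, and 140054, 51351 and 48823 in homozygous 1 to 3. The number of VIM peaks was 3 in each of the 9 libraries.

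FN1, which encodes the matrix protein fibronectin, had fewer strong peaks in homozygous libraries. Wild type had 7, 6 and 5, heterozygous 5, 4 and 5, and homozygous 3, 3 and 3. The homozygous count was below every wild type and heterozygous count, a mean difference from wild type of -3 peaks (6 ± 1 against 3 ± 0, SD, n = 3 each). Wild type 1 and 2, which had the highest counts, share 23.2% of intervals and are not independent. FN1 was the 1 of 9 genes below wild type without overlap, against 6.04% of all genes, and 0 of 9 were above it, against 7.54%. It was also the 1 of 9 below heterozygous, against 6.17%, with 0 of 9 above, against 6.59%. The exact permutation test over the 3 genotypes gave p = 0.0107, which became 0.42 over 19211 genes. The smallest p that 9 libraries allow is 0.00357. The full-list counts of FN1 were 13, 16 and 16, then 13, 13 and 13, then 11, 5 and 15, and the homozygous libraries overlapped the others. Among the 20000 highest peaks, the mean difference from wild type was smaller, at -0.667 (exact permutation p = 0.0714, adjusted p = 0.77).

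The FN1 promoter did not take part in that difference. Its peak (chr2:216299927-216301750) was at 85.3, 79.4 and 65.3 in wild type, 66.5, 71.2 and 84.0 in heterozygous and 63.3, 74.6 and 78.8 in homozygous libraries, with full overlap (exact permutation p = 0.821). An intronic site 14.03 kb after the start was likewise in all 9, between 52.4 and 96.5. The site 16.8 kb before the start (chr2:216317324-216317924) was at 44.5, 40.03 and 2.42 in wild type and at 12.7 in heterozygous 1, and no homozygous library had it among its 50000. The start of a non-coding gene lies within 500 bp of that site. The site was the 1 of 50 regions found in 3 of 3 wild type and 0 of 3 homozygous libraries, against 3.47% of all regions. Homozygous 3 did hold it at rank 178461 of its full list, and heterozygous 2 and 3 at ranks 60181 and 158266. Because this is the single region of the main comparison, its central 300 bases follow (chr2:216317525-216317824, plus strand), with no capitals because none of the motifs searched was found there.
FN1 16.8 kb upstream: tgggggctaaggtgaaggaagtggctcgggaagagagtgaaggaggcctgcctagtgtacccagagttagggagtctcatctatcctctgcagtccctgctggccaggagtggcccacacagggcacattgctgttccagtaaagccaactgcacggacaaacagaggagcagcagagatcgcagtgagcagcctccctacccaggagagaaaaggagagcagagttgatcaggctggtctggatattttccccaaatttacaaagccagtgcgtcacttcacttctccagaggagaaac

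Other FN1 sites varied as well. The site 74.1 kb after the start, in an exon near the end of the gene, was at 15.9, 15.0 and 16.6 in wild type, 41.4, 18.6 and 86.4 in heterozygous and 24.4 in homozygous 1. It was missing from the 50000 of homozygous 2 and 3, which held it at ranks 53059 and 110709. The site at 34.2 kb was in wild type 1 and 2 (28.4 and 25.2), the pair that shares 23.2% of intervals, and in no other library's 50000. The intronic site at 18.5 kb was at 41.4 in wild type 2 and 74.6 in heterozygous 2, and at 100000 peaks it was in 6 of 6 wild type and heterozygous libraries and 0 of 3 homozygous ones.

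**Figure D2:**
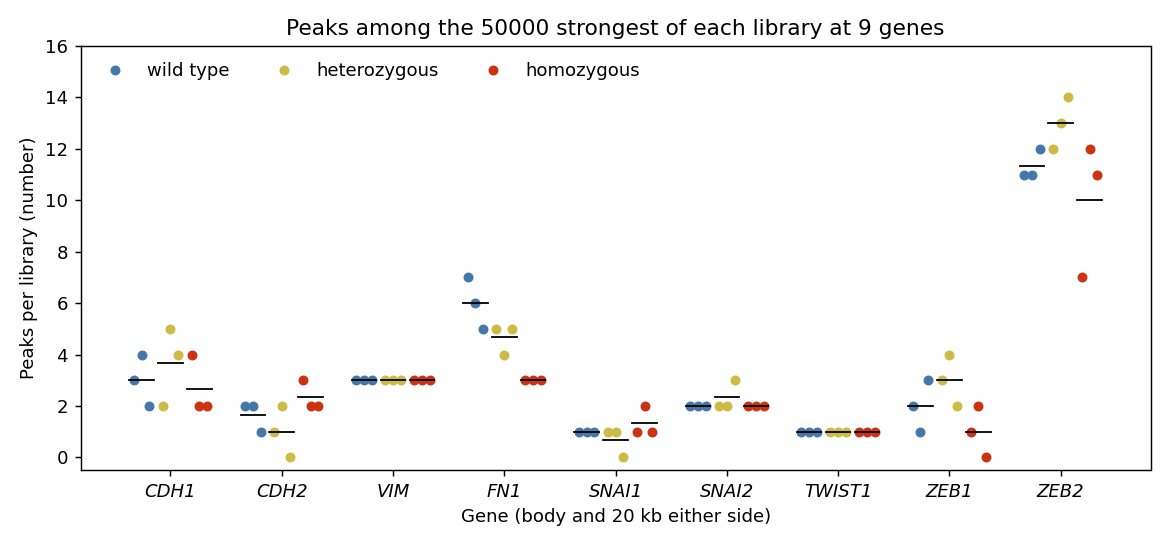
Number of peaks among the 50000 strongest of each library (vertical axis) within the body of each gene and 20 kb either side, with 1 point per library and a bar at the mean of each genotype. The homozygous points of FN1 lie at 3, below all wild type and heterozygous points, while the groups overlap or coincide for homozygous against wild type at the other 8 genes.

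SNAI1 and SNAI2 encode the zinc finger repressors Snail and Slug, which bind E-boxes. The SNAI1 promoter peak (chr20:48598489-48599784) was at 22.9, 29.3 and 39.7 in wild type and at 24.4 and 56.1 in heterozygous 1 and 2. Homozygous 1 to 3 had it at 91.1, 61.1 and 38.6. The highest value was thus in a homozygous library, but homozygous 3 lay below wild type 3, and the exact permutation p was 0.171. Heterozygous 3 held the SNAI1 promoter at rank 56079, just outside the 50000. The SNAI2 promoter peak (chr8:49833637-49834805) was in all 9 libraries, at 72.1, 79.3 and 89.4 in wild type, 90.4, 81.7 and 70.4 in heterozygous and 69.0, 70.4 and 58.3 in homozygous libraries. Homozygous libraries lay below wild type ones there, and homozygous 2 was level with heterozygous 3 to the digits printed (exact permutation p = 0.154). A second SNAI2 site 4.4 kb upstream was also in all 9, from 22.9 in homozygous 3 to 71.1 in homozygous 1. SNAI1 had 1 or 2 peaks per library except 0 in heterozygous 3, and SNAI2 had 2 in 8 libraries and 3 in heterozygous 3.

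TWIST1 encodes a basic helix-loop-helix factor that also acts through E-boxes. Its promoter was in none of the 50000 lists, but every full list held it, at ranks from 53771 in heterozygous 2 to 187713 in homozygous 2. The annotation used spans chr7:19060614-19157259 for this gene, and the resulting window of 136.6 kb had exactly 1 strong peak in each library. In 8 of them this was a site 65.8 kb after the start in an annotated intron (chr7:19091090-19091904), at 54.7, 13.4 and 56.1 in wild type, 60.9, 68.6 and 62.9 in heterozygous, and 49.7 and 14.9 in homozygous 2 and 3. All heterozygous values were above all others (exact permutation p = 0.0429, adjusted p = 0.416). Its central window held a match to the core of the CTCF motif. In homozygous 1 the single peak was instead a site 10.8 kb after the start, also in an annotated intron, at percentile 83.6. The other 8 libraries held that site only between ranks 59368 and 191454. Calling these sites intronic, and counting the one at 65.8 kb for TWIST1, rests on the annotated span. Other spans were not tested.

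ZEB1 and ZEB2 encode zinc finger homeobox repressors of CDH1. The ZEB1 promoter, whose start is printed above, was at 48.3, 36.9 and 45.03 in wild type and at 38.0 and 35.5 in heterozygous 1 and 2 (chr10:31607007-31609501). Homozygous 2 had it at 4.05, and it was missing from the 50000 of heterozygous 3, homozygous 1 and homozygous 3. All 3 wild type libraries were above all 3 homozygous ones (exact permutation p = 0.0321, adjusted p = 0.373). It was not closed: the full lists held it at rank 54381 in heterozygous 3 and at ranks 72320 and 67143 in homozygous 1 and 3. ATAC-seq peaks carry no strand, so the start of the antisense gene ZEB1-AS1 in the same interval cannot be told apart from that of ZEB1. A second ZEB1 start region, 1.7 kb further (chr10:31609582-31610081), was among the 50000 of heterozygous 2 alone, at 20.9.

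The intron sites of ZEB1 went in both directions. The site at 129.7 kb was at 29.0, 59.4 and 29.4 in heterozygous libraries, at 26.4 and 20.4 in wild type 1 and 3, and in no homozygous library's 50000 (exact permutation p = 0.0143, adjusted p = 0.373). The site at 150.5 kb was at 10.4, 10.98 and 40.7 in heterozygous libraries and at 36.1 in wild type 3. These were the 2 of 54 regions found in 3 of 3 heterozygous and 0 of 3 homozygous libraries, against 3.41% of all regions, while 0 of 54 went the other way, against 3.16%. Both windows are repeated sequence: the median 30-base word of each occurs 893 and 520 times in the genome. The placing of such reads is, as for the CDH2 site, not given in the sources used here. Homozygous 1 to 3 held the 129.7 kb site at ranks 60551, 58116 and 123207 of their full lists.

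The site 85.6 kb into ZEB1 lies in a window whose median 30-base word occurs 1 time in the genome. It was at percentiles 44.1 and 27.2 in homozygous 1 and 2, and homozygous 3 held it at rank 79125. No wild type or heterozygous library listed a peak there at any rank. At 100000 peaks and in the full lists it was the 1 region of the 9 genes present in 3 of 3 homozygous and 0 of 6 other libraries, a pattern of 1.13% and 0.638% of all regions at those lengths. ZEB1 had 2, 1 and 3 peaks in wild type, 3, 4 and 2 in heterozygous and 1, 2 and 0 in homozygous libraries (exact permutation p = 0.154).

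**Figure D3:**
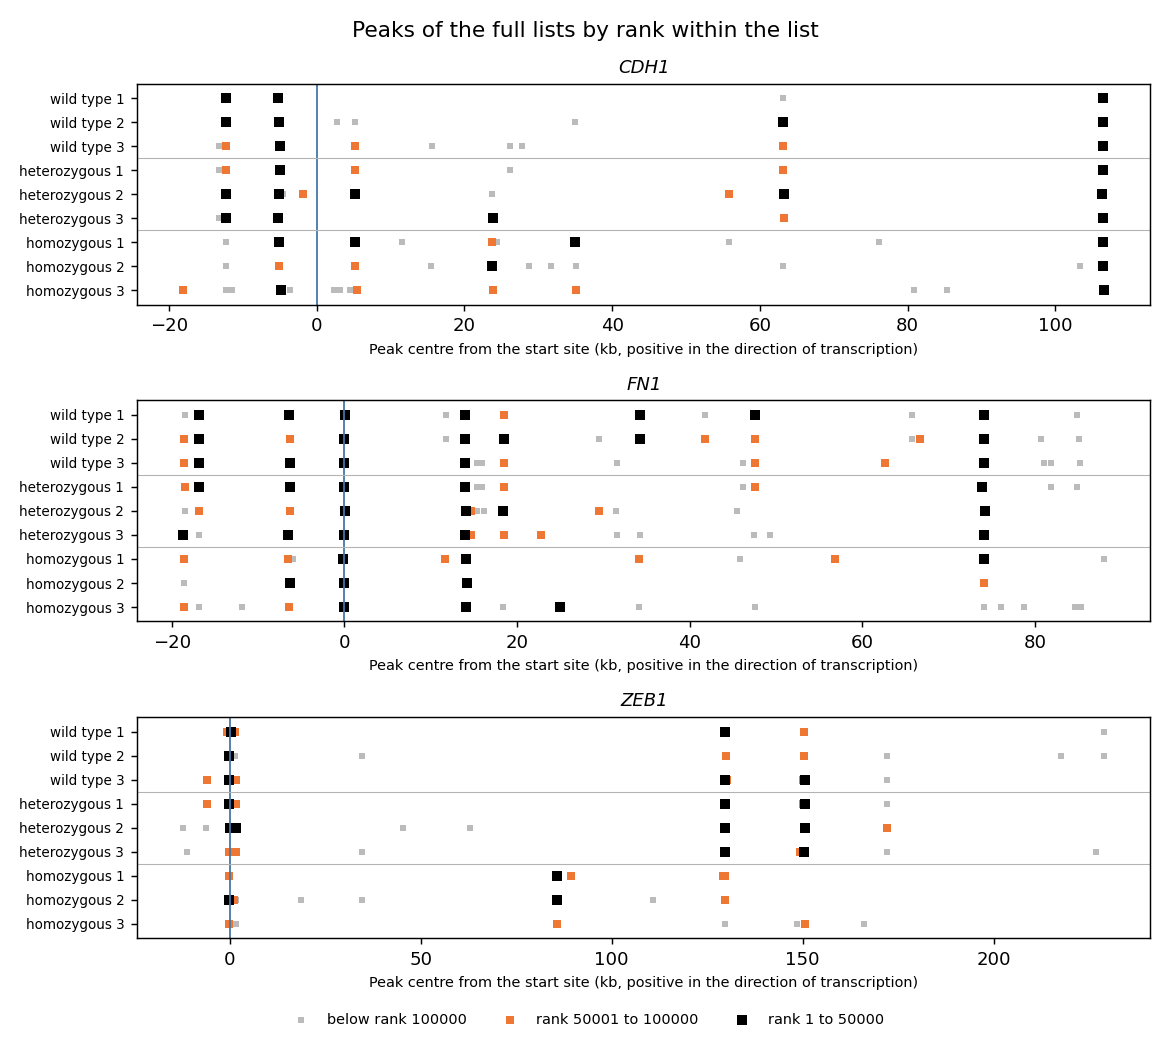
Positions of all full-list peaks at CDH1, FN1 and ZEB1, with distance of the peak centre from the start site in kb on the horizontal axis and 1 row per library. Black squares are peaks within rank 50000, orange squares those to rank 100000 and grey squares weaker ones. At ZEB1 the site 85.6 kb from the start appears in the 3 homozygous rows alone, and at FN1 the site 16.8 kb before the start is black in the wild type rows and in heterozygous 1.

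ZEB2 had the most strong peaks of the 9 genes: 11, 11 and 12 in wild type, 12, 13 and 14 in heterozygous and 7, 12 and 11 in homozygous libraries. The groups overlapped (exact permutation p = 0.171), and homozygous 1 alone was far below the rest. The order turned in the full lists, with 35, 37 and 36, then 36, 31 and 33, then 38, 40 and 47, with all homozygous counts above all others (exact permutation p = 0.0107, adjusted p = 0.278). Homozygous libraries thus listed more ZEB2 peaks in all, but no more strong ones.

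The ZEB2 promoter (chr2:145277405-145278349) was at 69.9, 76.2 and 43.6 in wild type, 49.3, 64.8 and 72.8 in heterozygous and 38.7 and 34.6 in homozygous 1 and 2. Homozygous 3 held this interval at rank 70936. Its strongest peak at any protein-coding start of ZEB2 was at rank 50469, just outside the 50000. At this interval homozygous values were below all others (exact permutation p = 0.0536, adjusted p = 0.47). The clearest distal difference of the gene was an intronic site 148.8 kb after the start (chr2:145128386-145129287), at 67.6, 76.4 and 53.7 in wild type, 48.6, 77.8 and 77.9 in heterozygous and 5.92 and 3.26 in homozygous 2 and 3. Homozygous 1 had no peak there even in its full list. The exact permutation test of that site gave p = 0.0286 and an adjusted p of 0.373. Its central window held 1 match to the GATA letters AGATAA and 2 to the RUNX letters.

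The ZEB2 site 3.9 kb upstream was in all 9 libraries and was high in homozygous ones: 66.9, 71.6 and 67.2 in wild type, 65.9, 79.9 and 84.3 in heterozygous and 85.4, 83.9 and 77.3 in homozygous libraries (exact permutation p = 0.129). Homozygous libraries exceeded wild type there and overlapped heterozygous ones. Starts of the non-coding genes LINC01412 and LINC02993 lie within 500 bp of that site. The intronic site at 14.5 kb was among the strongest of all members, at 97.0, 96.6 and 94.8 in heterozygous libraries, 46.5, 65.6 and 93.8 in wild type and 48.9, 61.3 and 85.1 in homozygous ones. Wild type 3 was close to heterozygous 1, with which it shares intervals. A start of a shorter coding transcript 64.9 kb into ZEB2 (chr2:145212526-145213038) was open in heterozygous 2 and 3, at 18.2 and 15.6, and in no other library's 50000.

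**Figure D4:**
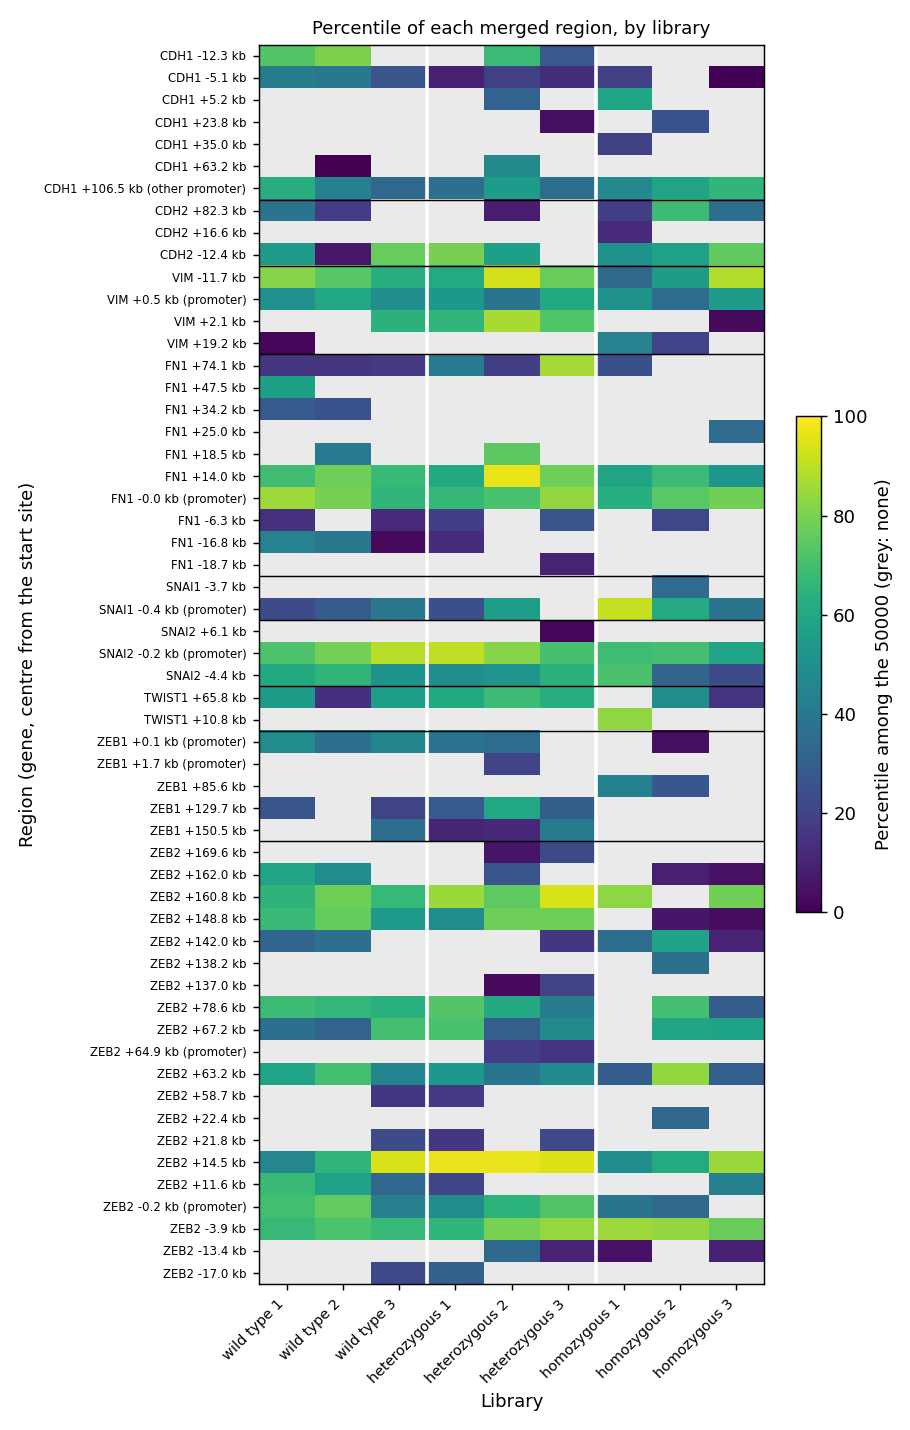
Percentile among the 50000 (colour, 0 to 100; grey where a library has no such peak) of the 56 merged regions, in rows by gene and distance from the start site, and the 9 libraries in columns. Filled rows across all columns are the 10 regions found in every library.

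Over all 9 genes, sites present or absent as a block by genotype were few. Homozygous against wild type gave 0 of 50 regions found in homozygous libraries alone, against 2.75% of all regions, and the FN1 site in the other direction. Heterozygous against wild type gave 0 of 48 in either direction, against 0.423% and 0.515%. Homozygous libraries against the other 6 gave 0 of 56 in either direction, against 1.81% and 1.56%. With heterozygous 1 left out, heterozygous against wild type gave 6 of 48 regions over both directions, against 5.73% of all regions. With wild type 3 left out it gave 3 of 48, against 10.1%. Requiring no peak in the full list either left 0 regions in each of these comparisons.

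Longer lists moved these counts. At 100000 peaks, 2 of 120 regions were in homozygous and not wild type libraries (ZEB1 at 85.6 kb and CDH1 at 23.8 kb), against 1.91% of all regions, and 4 of 120 were the reverse, against 2.26%. Those 4 were the CDH1 site 12.3 kb upstream and the FN1 sites at 47.5 kb, at 18.5 kb and 16.8 kb upstream. Missing from homozygous libraries and present in the other 6 were 2 of 139, against 0.836%. The full lists gave 2 of 337 in homozygous and not wild type libraries, against 0.958%, and 1 of 337 in wild type and not homozygous ones, against 2.35%. They gave 0 of 359 missing from homozygous libraries alone, against 0.462%. The site in wild type and not homozygous libraries lay in CDH2 (chr18:25520648-25521312) and was also in heterozygous 1.

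Of the 56 regions 10 were in all 9 libraries (17.9%, against 18.1% of all regions) and 11 in 1 library (19.6%, against 30.4%).

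The percentile test called 0 of 56 member regions after adjustment, as it did 0 of 106131 overall. With a smallest p of 0.00357, a pass needed a great many regions or genes at that value. A count of 0 past adjustment therefore does not show that none differed. Unadjusted p was below 0.05 for 6 of 56 (10.7%), against 10.6% of all regions, so the members did not stand out from the background. For peak counts, 0 of 9 genes passed adjustment and FN1 was the 1 of 9 below an unadjusted 0.05, against 9.6% of all genes. Heterozygous against wild type gave 0 of 9 genes without overlap above and 0 of 9 below, against 1.52% and 1.22%. Split by kind of site, homozygous libraries had 5 ± 1 promoter peaks over the 9 genes against 6.33 ± 0.577 in wild type and 6.33 ± 1.53 in heterozygous libraries (SD, n = 3 each). Distal peaks numbered 20.3 ± 1.53, 23.7 ± 1.15 and 25 ± 1.73 in the same order. By library, distal peaks numbered 19, 22 and 20 in homozygous, 25, 23 and 23 in wild type and 23, 26 and 26 in heterozygous libraries. Distal peaks over all genes are not given here, so whether the lower homozygous counts are particular to these genes was not tested. In the full lists distal peaks of the 9 genes numbered 92, 92 and 146, then 93, 152 and 127, then 106, 79 and 79, and the groups overlapped. The mean of promoter peaks was 12.3 in homozygous and in wild type full lists.

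Motif letters in the central 300 bases of the 56 regions were close to those of all regions. E-box letters were in 14 (25%), against 21.9% of all regions and 20.6% of 35116 promoters of the same length. RUNX letters were in 17 (30.4%, against 22.98% and 13.1%), GATA letters in 15 (26.8%, against 20.8% and 10.3%), AP-1 letters (TGANTCA) in 8 (14.3%, against 18.0% and 7.71%) and the core of the CTCF motif in 3 (5.36%, against 6.37% and 4.64%). These are matches of letters on either strand, and binding was not measured.

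Other genes of the pathway gave scattered differences. From the 0 genes of any list that passed adjustment over all genes no conclusion is drawn, for the reason given above. At 14 further classical cadherins tested, homozygous libraries were above wild type without overlap at 0 and below at 0. Over all genes these shares were 7.54% and 6.04%. The median difference was -0.167 peaks, and 12 of 16 had a promoter peak in 0 libraries, against 31.0% of all protein-coding genes. The median over all genes was 0.

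Of 14 catenin and nectin adhesion genes, which hold cadherins to the actin skeleton or act beside them, 3 were above wild type without overlap and 0 below, against 7.54% and 6.04% of all genes, with a median of -0.167. Unadjusted p was below 0.05 for 1 of 14, against 9.6% of all genes. PKP4, a plakophilin relative of the catenins, had 7, 6 and 7 peaks in wild type, 9, 5 and 11 in heterozygous and 12, 10 and 8 in homozygous libraries. NECTIN2, an adhesion receptor of cell junctions, had 2 peaks in each wild type and heterozygous library and 3, 4 and 4 in homozygous ones (exact permutation p = 0.0357, adjusted p = 0.42). JUP, which encodes plakoglobin, had 1 in each wild type library, 2, 1 and 1 in heterozygous and 2, 3 and 2 in homozygous ones.

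Of 20 epithelial genes, 5 were above wild type without overlap and 0 below, against 7.54% and 6.04% of all genes, with a median of 0.333. Heterozygous libraries were above wild type at 0 of 20 and below at 1, against 1.52% and 1.22%, and unadjusted p over the 3 genotypes was below 0.05 for 1 of 20, against 9.6%. ST14, which encodes the protease matriptase, had 2, 1 and 2 peaks in wild type, 2, 3 and 4 in heterozygous and 6, 4 and 4 in homozygous libraries (exact permutation p = 0.0321, adjusted p = 0.42). GRHL2, an epithelial transcription factor, had 1 in each wild type library, 0, 0 and 3 in heterozygous and 2, 5 and 4 in homozygous ones. CRB3, a polarity protein, had 1 in each wild type library, 1, 2 and 1 in heterozygous and 2, 2 and 3 in homozygous ones, and the keratin KRT19 had 1, 1 and 0, then 2, 2 and 0, then 2, 2 and 2.

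Of 24 further mesenchymal genes, 0 were above wild type without overlap and 2 below, against 7.54% and 6.04% of all genes, with a median of 0.333. In this list 1 of 24 genes had an unadjusted p below 0.05, against 9.6% of all genes. COL1A2, a chain of type I collagen, had 5, 6 and 5 peaks in wild type, 5, 3 and 6 in heterozygous and 3, 3 and 3 in homozygous libraries (exact permutation p = 0.129). ACTA2, smooth muscle actin, had 6 in each wild type library, 5, 7 and 8 in heterozygous and 5, 3 and 5 in homozygous ones.

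Of 20 TGF-beta pathway genes and other inducers of the switch, 4 were above wild type without overlap and 2 below, against 7.54% and 6.04% of all genes, with a median of 0.667. Here 5 of 20 genes had an unadjusted p below 0.05, against 9.6% of all genes. SMAD3, a transducer of TGF-beta signals, had 2, 3 and 4 peaks in wild type, 3, 5 and 3 in heterozygous and 5, 10 and 7 in homozygous libraries (exact permutation p = 0.05, adjusted p = 0.513). WNT5A, a secreted Wnt ligand, had 2 in each wild type library, 2, 1 and 1 in heterozygous and 0 in all homozygous ones (exact permutation p = 0.0143, adjusted p = 0.42). The homeobox factor PRRX1 had 2 in each wild type library, 3, 3 and 2 in heterozygous and 4, 3 and 3 in homozygous ones. The receptor NOTCH1 had 3 in each wild type library, 3, 3 and 4 in heterozygous and 5, 4 and 4 in homozygous ones.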

How the data were processed

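Peaks of 9 ATAC-seq libraries were analysed as deposited, 1 list per library. The submitters' processing notes name cutadapt, Bowtie2 2.2.9, Picard, MACS2 2.1.0 and hg19 (GRCh37), and the settings are not given in the sources used here. Each deposited peak carries a display score, a fold enrichment, a −log10 p-value, a −log10 q-value and a summit offset, which the authors' caller computed. They were used only to rank or filter peaks within a list. Depth per library is unknown.

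Chromosomes 1 to 22 and X were analysed, leaving out the 155 to 289 peaks per list that lay outside them. Each library's 50000 top peaks by −log10 p were merged into regions at 1 bp or more of overlap. A region differed when 3 of 3 libraries of one genotype and 0 of 3 of the other held it. Peaks per gene and percentiles (0 where absent) were compared by an exact permutation test (280 distinct assignments, statistic: squared deviations of genotype means), with Benjamini-Hochberg adjustment over all genes or regions, checked on simulated data. Genes came from GENCODE release 44 mapped to GRCh37, and distances are from the MANE Select start. The RefSeq promoter table held 5 of the 9 genes. Scripts used Python 3.11.15, numpy 2.4.6 and matplotlib 3.10.9.

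All 9 genes were named, with every promoter region and the distal regions that differed by genotype. Of each pathway list, up to 4 genes without overlap between homozygous and wild type were named, by size of difference. Other regions and the sequences printed were chosen after their values were seen. The members and lists were chosen with earlier results of these data known. Alternatives covered list length, ranking column, window, overlap, promoter width, shared lists and each library left out. Some sequences are not reported here.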

Additional observations from a re-analysis of the deposited data

How the results depend on the processing

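Over all alternatives, 0 genes and 0 member regions passed adjustment for peaks per gene or percentile, the lowest adjusted p of a member gene being 0.278. The smallest possible p, 0.00357 with 9 libraries, rises when libraries are left out. These counts of 0 could hardly have come out otherwise, so they do not show stability. Of 180 values of homozygous minus wild type peaks at member genes under alternatives, 9 reversed and 171 did not. A reversal meant a change of sign, so VIM, SNAI2 and TWIST1, with a main value of 0, could not reverse. With 20000 peaks VIM became -1.33, SNAI2 -0.667 and TWIST1 0.333. At that length FN1 (main value -3) was -0.667 and ZEB2 was -3. CDH1 (main value -0.333) was 1 with 100000 peaks, 5 in the full lists, 0.333 within 10 kb, and 0.167 with wild type 2 and heterozygous 1 left out so that each source counted once. Over omissions of 1 library it ran from -1 to 0.167, the latter without wild type 2. In the full lists CDH2 became -5.67 and ZEB2 5.67, SNAI1 became -0.333 when peaks were ranked by fold enrichment, and ZEB2 (main value -1.33) ran from -2.33 to 0.167 over omissions, the latter without homozygous 1. The causes were not tested.

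Counts of differing regions were small and moved. The shares in brackets are of all regions under the same setting. Homozygous against wild type (1 of 50 regions, 6.22%) gave 0 with 20000 peaks (6.32%), 6 with 100000 (4.17%), 3 in the full lists (3.31%), 4 at a −log10 q of at least 5 (6.71%), 0 within 10 kb (6.22%), 2 and 5 with each source used once by leaving out wild type 2 and heterozygous 1 (7.55%) or wild type 1 and 3 (17.7%), and 0 when absence was required in the full list too. Over all 9 omissions it ran from 1 to 3, with 2 without wild type 2 (7.56%) or homozygous 1 (10.1%) and 3 without wild type 3 (12.5%), homozygous 2 (10.4%) or homozygous 3 (9.88%). Heterozygous against wild type (0 of 48, 0.937%) gave 1 with 20000 peaks (1.16%), 1 in the full lists (1.01%), 2 at the q threshold (1.03%), 6 and 4 with each source used once (7.29% and 15.6%), and 0 to 6 over the omissions, with 6 without heterozygous 1 (5.73%) and 3 without wild type 3 (10.1%). Homozygous against heterozygous (2 of 54, 6.57%) gave 4 with 100000 peaks (4.12%), 4 at the q threshold (6.41%), 6 with wild type 2 and heterozygous 1 left out (10.3%), 0 when absence was required in the full list too, and 2 to 6 over the omissions, with 6 without heterozygous 1 (10.3%), 4 without heterozygous 2 (9.01%) and 5 without homozygous 3 (10.2%). Regions present in, or missing from, the homozygous libraries alone (0 of 56, 3.37%) gave 3 with 100000 peaks (1 present and 2 missing, 1.96%), 1 in the full lists (present, 1.1%), 2 at the q threshold (missing, 3.23%), 1 with wild type 2 and heterozygous 1 left out (4.06%), and 0 to 1 over the omissions, with 1 without wild type 2 (3.8%), homozygous 1 (5.73%) or homozygous 3 (5.55%). Fewer libraries make the rule easier to meet. At the q threshold, 4 of 34 regions were in wild type and not homozygous libraries, against 5.36% of all regions. The reverse held for 0 of 34, against 1.35%. Those 4 were the ZEB1 and ZEB2 promoters, the CDH1 site 5.1 kb upstream and the ZEB2 site at 148.8 kb.

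The alternatives with each source used once by leaving out wild type 1 and 3, and with peaks joined at 250 bp, were chosen after seeing the data. Asking a peak to overlap its region by 250 bp could not change a value, since every interval lies wholly in its region and the shortest is 328 bp. Replicate numbers did not pair the libraries: same-number correlations of deviations from genotype means ran from -0.304 to 0.178 over 9 pairs. The replicate block, which permuted genotypes within replicate number, gave 0 genes, 0 member genes and 0 member regions past adjustment. It allows fewer distinct assignments, so its smallest p is above 0.00357, and these counts of 0 do not show stability either.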

Other observations

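The surroundings of the genes were counted as well, in 1 Mb on either side beyond each window, among the 50000 peaks. Around SNAI1 there were 34, 33 and 36 peaks in wild type, 38, 39 and 37 in heterozygous and 52, 53 and 62 in homozygous libraries. Around CDH1 there were 30, 34 and 34, then 36, 40 and 35, then 45, 48 and 41. Around TWIST1 the order was the reverse, with 34, 36 and 30 in wild type, 31, 27 and 25 in heterozygous and 20, 20 and 16 in homozygous libraries, and around ZEB2 the counts were 39, 41 and 38, then 38, 40 and 38, then 33, 32 and 28. So 2 of 9 surroundings were above wild type without overlap in homozygous libraries and 2 of 9 below, against 37.4% and 15.4% of 19211 genes. Around FN1, whose own count was lower in homozygous libraries, there were 50, 56 and 51, then 45, 50 and 54, then 54, 54 and 51, and the groups overlapped. No test was run on these counts.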
